A study of Mus musculus with 6 samples.

Results

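The Rab GTPase genes of a mouse HER2-positive mammary cancer line were compared between mock cells and cells that overexpressed p140Cap. Members were all genes of the count table whose symbol is Rab followed by a number and at most 1 letter from a to d, which gave 59 of 21960 genes. They were grouped by the trafficking step with which each protein is mainly associated: early endosome (8 genes), recycling (9), late endosome and lysosome (9), secretory pathway (26) and other (7). The rule used no measured value.

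The series holds 6 RNA-Seq libraries, 3 of mock and 3 of p140Cap cells. The study's methods name the cells as TuBo, a line grown from a mammary carcinoma that arose in a BALB/c mouse carrying the rat HER2/neu oncogene (NeuT) under the MMTV promoter. The labels list both groups as the Balb-NeuT cell line from breast tumor, with the genotype wt in the mock group. No age or time point is given. p140Cap is the adaptor protein encoded by Srcin1. Its cDNA was delivered with the retroviral vector pBabe-puro and infected cells were selected in puromycin. According to the methods, the p140Cap cells were a pool of 4 single-cell clones, so the 3 libraries do not stand for independently derived lines. The series' design text speaks of mice where the sample labels speak of cell lines, and nothing says how far apart the replicate samples were grown, so that p-values measure the spread between these samples, which may be technical.

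Rab proteins are small GTPases that act as switches on membranes. In the GTP-bound form a Rab recruits effectors, such as tethers and motor adaptors, that move, dock and fuse vesicles. Guanine nucleotide exchange factors (GEFs) switch Rabs on, GTPase-activating proteins (GAPs) switch them off, and GDP dissociation inhibitors (GDIs) carry the prenylated, inactive protein through the cytosol. In mammary epithelium Rabs sort growth factor receptors and integrins between recycling and degradation and carry secretory cargo to the apical side. Transcript levels, which are what was measured here, do not show how much of a Rab is in its active form.

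Total reads were 33058719 to 75506562 in the mock libraries and 13770385 to 15364850 in the p140Cap libraries, so that every mock library was deeper. Srcin1 was at 15.6, 12.8 and 16.6 CPM (reads scaled to a common library size) in mock and at 2265, 2520 and 2244 CPM in p140Cap cells, as the labels state (log2 fold change 7.29 ± 0.09 SE). Throughout, fold changes are p140Cap over mock, ± is followed by the SE of the fit for fold changes and by the SD over 3 libraries for CPM, and adjusted p-values come from the quasi-likelihood test of edgeR over 11800 genes with Benjamini-Hochberg adjustment. Genes with an adjusted p under 0.05 are said to be higher or lower. Of 6 epithelial markers, Krt8, Krt18, Epcam, Cdh1 and Erbb2 were abundant and Krt19 was close to 0. Their summed level was 5245 to 5570 CPM in mock and 6184 to 6339 CPM in p140Cap cells. Leukocyte markers summed to 2.08 to 2.34 CPM in mock and 3.23 to 4.09 CPM in p140Cap cells, nearly all of it Cd68, with Ptprc at 0 reads in all 6 libraries and 4 of 7 markers at 0 throughout. Fibroblast markers summed to 9.97 to 10.5 and 11.3 to 14.1 CPM, with 4 of 7 at 0 throughout, and endothelial markers to 0.21 to 0.48 and 0.48 to 0.73 CPM, with 1 of 4 at 0. The part of these shifts and of the depth gap in the Rab values was not tested beyond the thinned counts given with the alternatives. In bulk RNA, fewer cells of a type and less RNA per cell cannot be told apart.

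Rab transcripts were on the whole more abundant in p140Cap cells, by modest amounts. Of 48 members that passed the filter on low counts, 28 were higher, 8 were lower and 12 were not called. The calls cover 75.0% of tested members, against 71.1% of all genes tested, so a call by itself was no more than usual for this comparison. The directions were less even than in the table as a whole: 58.3% of tested members were higher and 16.7% lower, where all genes gave 35.2% and 35.9%. The median log2 fold change of the tested members was 0.22 (quartiles 0.07 and 0.42), and that of all tested genes was -0.002 (quartiles -0.32 and 0.31). Against the mean of the mock libraries, the median of the members lay at -0.015, 0.010 and -0.007 in the 3 mock libraries and at 0.24, 0.21 and 0.22 in the 3 p140Cap libraries (log2 CPM). Summed over the tested members, Rab transcripts made up 3872, 3939 and 3938 CPM in mock and 4406, 4373 and 4384 CPM in p140Cap cells. Most changes were small. With a log2 fold change of at least 0.5 as a second condition, 13 members were called, 10 higher and 3 lower (27.1% of tested members, against 30.8% of all genes, where 15.3% were higher and 15.5% lower). Rab6b and Rab40b, among the 10, passed the filter on low counts only through the p140Cap libraries, which fixed their direction. With at least 10 reads in every library, 9 members were called by this rule, 7 higher and 2 lower. CPM values of the groups did not overlap for 37 of the 48 (77.1%, against 73.4% of all genes). These counts leave out members that did not pass the filter. The 28 that were higher in p140Cap cells spread over every step: 5 of 8 tested early endosome genes, 6 of 9 recycling genes, 3 of 7 late endosome genes, 12 of 19 secretory genes and 2 of 5 others.

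**Figure D1:**
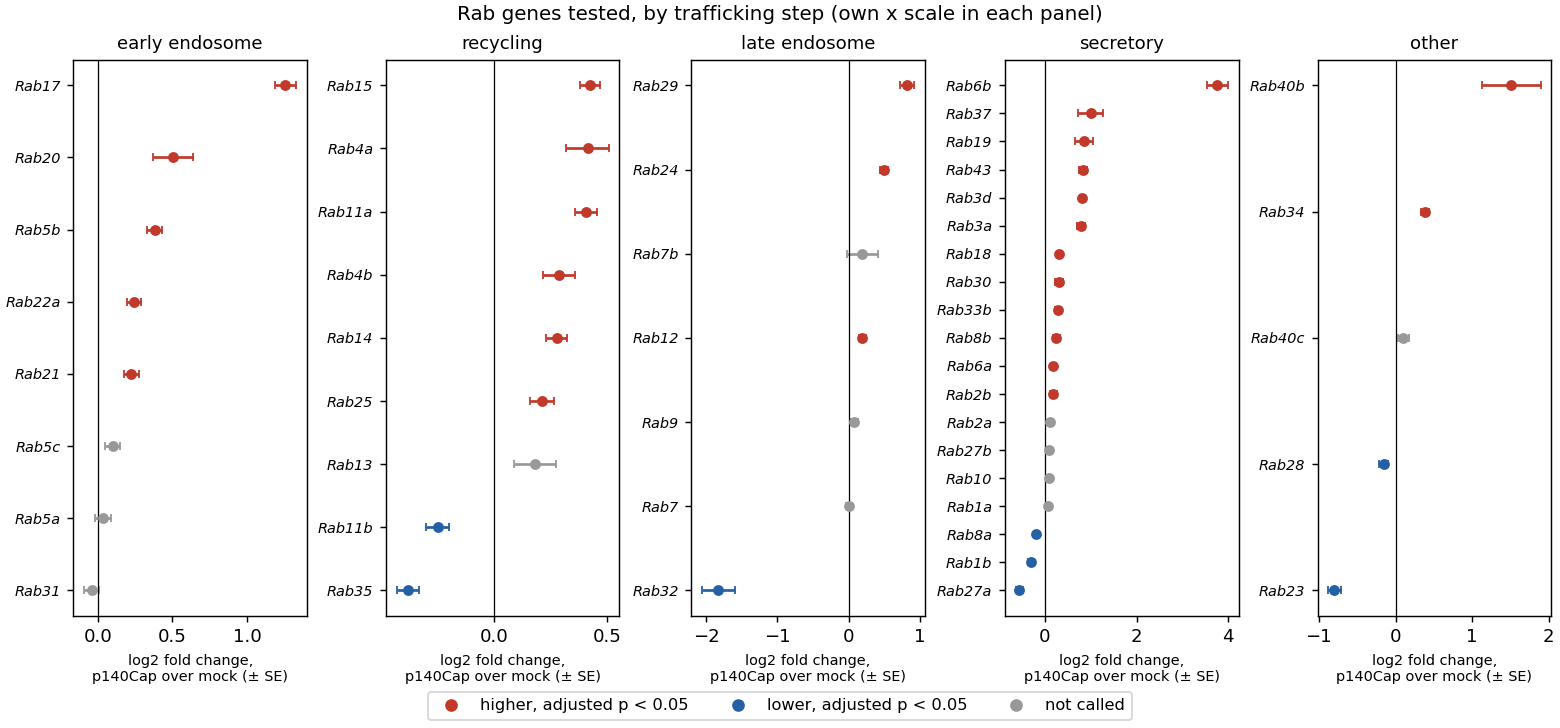
Log2 fold change (p140Cap over mock, x axis, a separate scale in each panel) of the 48 tested Rab genes in rows, split by trafficking step, with bars for the SE of the fit. Red marks genes that were higher, blue genes that were lower and grey genes not called. Most points lie right of 0 in every panel, and the farthest points are Rab6b at 3.76 and Rab32 at -1.83.

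The remaining 11 members had too few reads to test. Rab38, Rab9b, Rab44, Rab3b, Rab36 and Rab3c had 0 reads in all 6 libraries, which allows a level of up to 0.0203 CPM in mock and 0.0681 CPM in p140Cap cells (3 reads over the pooled reads of a group, counting error only). Rab3b and Rab3c are paralogs of Rab3a and Rab3d, and Rab38 is a paralog of Rab32 and Rab29, so these subfamilies were represented by their other members. Rab42 had 9, 2 and 2 reads in mock and 0 in each p140Cap library, and Rab26, of secretory granules, had 25, 2 and 3 against 2, 4 and 2 reads. Rab33a, Rab39 and Rab39b had at most 0.0734 CPM in any library.

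To show the sequence next to genes whose level changed, the 250 bases before a RefSeq transcription start (GRCm38.p6, 5′ to 3′ on the strand of the gene) are given for the called genes Rab17, Rab40b (few reads) and Rab27a, which rose, rose and fell by at least 0.5 log2 units and whose windows lie outside annotated exons. Rab43 met the same conditions and is left out because its reads are uncertain. The window of Rab17 is chr1:90967668-90967917 (minus strand), within the span of the gene and ahead of one of its starts. That of Rab40b is chr11:121388252-121388501 (minus strand) and that of Rab27a is chr9:73044560-73044809 (plus strand). Capitals mark matches, on either strand, to the GC box GGGCGG or to CCAAT.
Rab17: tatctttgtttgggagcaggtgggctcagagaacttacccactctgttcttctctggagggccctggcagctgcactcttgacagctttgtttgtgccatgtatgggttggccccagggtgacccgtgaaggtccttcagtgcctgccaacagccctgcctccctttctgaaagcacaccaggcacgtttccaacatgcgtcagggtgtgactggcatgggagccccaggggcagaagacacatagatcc
Rab40b: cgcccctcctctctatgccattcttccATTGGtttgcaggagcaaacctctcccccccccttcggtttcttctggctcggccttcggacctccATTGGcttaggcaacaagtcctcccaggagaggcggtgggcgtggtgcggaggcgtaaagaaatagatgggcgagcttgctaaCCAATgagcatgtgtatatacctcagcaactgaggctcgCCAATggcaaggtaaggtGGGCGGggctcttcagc
Rab27a: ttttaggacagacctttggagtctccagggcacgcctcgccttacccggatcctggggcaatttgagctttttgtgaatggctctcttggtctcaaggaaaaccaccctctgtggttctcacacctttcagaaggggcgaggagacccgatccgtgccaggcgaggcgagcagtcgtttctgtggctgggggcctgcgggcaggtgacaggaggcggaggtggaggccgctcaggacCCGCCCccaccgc
The Rab17 window held no match to these motifs, nor to the E-box CACGTG, the AP-1 motif TGANTCA or the TCF motif CTTTGA. It had 56.8% G and C and a CpG observed over expected ratio of 0.15. The Rab27a window had 62.0% G and C, a ratio of 0.59 and 1 GC box. The Rab40b window had 57.6% and 0.53, with 1 GC box and 4 CCAAT matches. RefSeq promoters were at hand for 41 of the 48 tested members, 53 windows in all. GGGCGG was in 66.0% of these and in 32.7% of the 32851 mouse promoter windows, CCAAT in 39.6% and 33.9%, CACGTG in 9.43% and 6.02%, TGANTCA in 3.77% and 6.75%, and CTTTGA in 11.3% and 13.8%. The median CpG ratio of the Rab windows was 0.73 and that of all windows 0.37. Among Rab genes called with at least 0.5 log2 units (12 genes, 18 windows) it was 0.62, and among the other tested Rab genes (29 genes, 35 windows) 0.76. The 32851 windows belong to 27025 genes, tested here or not, whereas the Rab windows belong to tested members only. The part of this difference in the shares was not tested. A match is a run of letters and not a bound site, and these shares were not tested.

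Early endosome Rabs act in the first sorting of internalized receptors. Rab17, which is typical of polarized epithelia and acts at apical endosomes and in transcytosis, rose most. Its level was 11.6, 10.8 and 11.5 CPM in mock and 25.4, 27.2 and 29.0 CPM in p140Cap cells. All p140Cap libraries were more than 2-fold above every mock library, and the log2 fold change was 1.26 ± 0.07 (adjusted p = 2.2e-10). Rab20, found on endosomes and phagosomes, was at 5.64, 4.93 and 6.91 against 7.12, 9.47 and 8.01 CPM. The groups were separated by a narrow gap (log2 fold change 0.50 ± 0.13, adjusted p = 0.0029), and with all libraries thinned to the smallest total the change was 0.37 and not called (adjusted p = 0.10). The 3 Rab5 paralogs, which drive fusion of early endosomes, did not move alike. Rab5b was at 124, 130 and 118 against 164, 166 and 153 CPM, with no overlap (0.38 ± 0.05, adjusted p = 5.1e-06). Rab5c, the most abundant of the step by CPM, was at 177, 173 and 185 against 186, 203 and 184 CPM, and its groups overlapped (0.10 ± 0.05, adjusted p = 0.088). Rab5a was not called either (0.03 ± 0.05, adjusted p = 0.58). Rab22a, which sorts cargo from early endosomes to recycling, was at 63.4, 61.9 and 61.5 against 74.1, 75.5 and 71.5 CPM (0.24 ± 0.05, adjusted p = 0.0003). Its paralog Rab31, which links the trans-Golgi network and endosomes, had a log2 fold change of -0.04 ± 0.05 (adjusted p = 0.47). Rab21, of integrin endocytosis, was higher by 0.23 ± 0.05 (adjusted p = 0.00068). In sum of CPM the step went from 576 ± 3.32 to 665 ± 13.2.

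**Figure D2:**
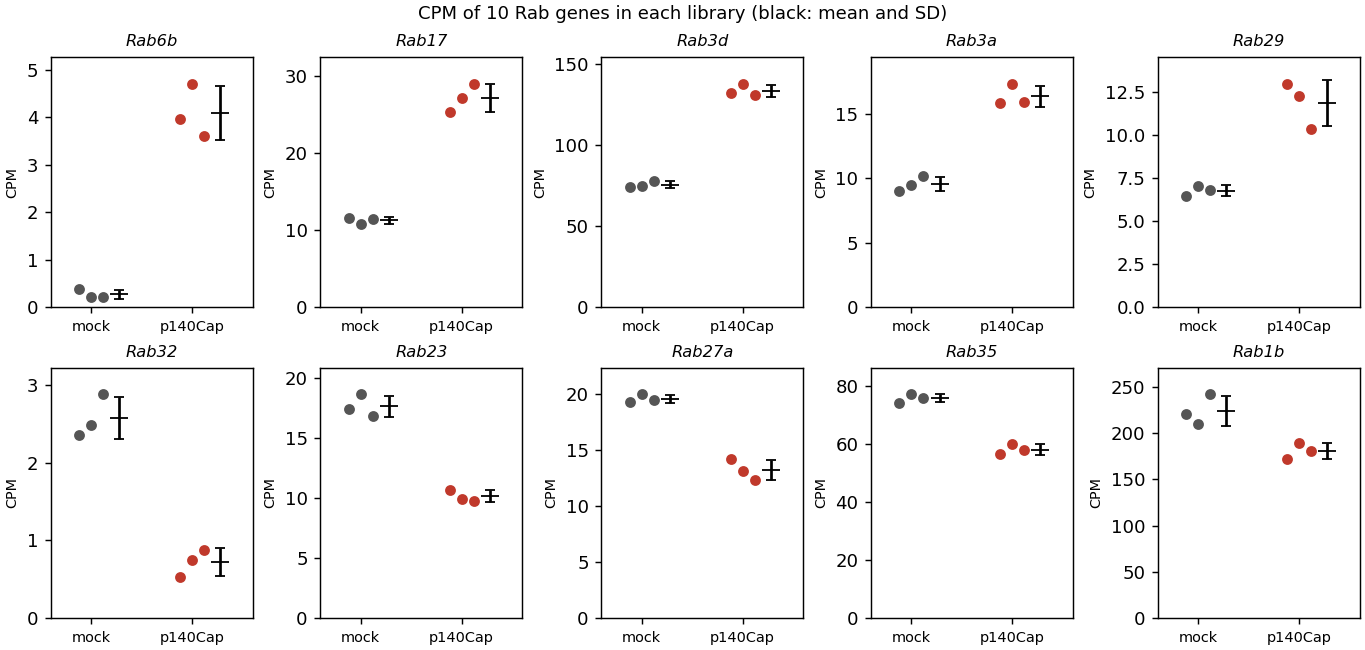
Levels of 10 Rab genes in CPM (y axes from 0, a separate scale for each gene) in the 3 mock (grey) and 3 p140Cap (red) libraries, with the mean and SD in black. The groups are separated in each panel: Rab6b, Rab17, Rab3d, Rab3a and Rab29 are higher and Rab32, Rab23, Rab27a, Rab35 and Rab1b are lower in p140Cap cells.

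Recycling Rabs return receptors and integrins to the cell surface, and here 6 of 9 genes were higher and 2 were lower, against 35.2% higher and 35.9% lower among all genes. None was called with at least 0.5 log2 units, against 30.8% of all genes. Rab15, of recycling endosomes, was the most abundant by CPM, at 249, 243 and 248 in mock and 324, 336 and 331 in p140Cap cells, with tight replicates in both groups (0.42 ± 0.04, adjusted p = 3e-07). Rab4a, which acts in fast recycling, was at 11.2, 10.9 and 10.5 against 14.0, 16.9 and 12.6 CPM (0.41 ± 0.09, adjusted p = 0.00086). The p140Cap libraries were all higher but spread more than the mock libraries. Rab4b was also higher (0.29 ± 0.07, adjusted p = 0.0017), but 68.5% of its exonic bases overlap the readthrough gene model Gm21983 on the same strand, so its reads are uncertain, and thinned counts gave 0.22 with an adjusted p of 0.055. The Rab11 subfamily, which passes cargo through the slow recycling compartment, split. Rab11a was at 113, 124 and 121 against 160, 153 and 161 CPM (0.41 ± 0.05, adjusted p = 1.5e-06), and Rab25, the member restricted largely to epithelia and known in integrin recycling, was at 123, 122 and 136 against 142, 149 and 150 CPM (0.21 ± 0.05, adjusted p = 0.0016). Rab11b was at 124, 123 and 125 against 105, 111 and 96.6 CPM and was lower (-0.25 ± 0.05, adjusted p = 0.00041). In each of the 3 genes the groups were apart. Rab35, of fast recycling and cytokinesis, was the member of the step with the largest fall, at 74.1, 76.9 and 75.7 against 56.3, 59.9 and 57.7 CPM (-0.38 ± 0.05, adjusted p = 3.4e-06). Rab14, which connects Golgi and endosomes, was higher (0.28 ± 0.05, adjusted p = 4.3e-05), and Rab13, of traffic to tight junctions, was not called (0.18 ± 0.09, adjusted p = 0.091). Without mock replicate 3, Rab13 was called at 0.25 (adjusted p = 0.020). The sum of the step went from 946 ± 10.4 to 1105 ± 11.3 CPM.

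Among late endosome and lysosome Rabs the most abundant gene did not move, and a pair of paralogs went opposite ways. Rab7, which matures late endosomes and fuses them with lysosomes, was at 298, 304 and 303 CPM in mock and 302, 301 and 300 CPM in p140Cap cells. Its groups overlapped and the log2 fold change was -0.002 ± 0.04 (adjusted p = 0.96). Rab32, which serves lysosome-related organelles, was at 2.37, 2.49 and 2.88 CPM (181, 99 and 96 reads) in mock and 0.527, 0.749 and 0.881 CPM (8, 11 and 12 reads) in p140Cap cells. Every p140Cap library was far below every mock library (-1.83 ± 0.23, adjusted p = 2.5e-06), and the ratio of pooled reads per total, mock over p140Cap, was 3.52 (95% exact interval 2.44 to 5.26, counting error only). Rab29, its relative that binds the kinase LRRK2 and acts at lysosomes and the trans-Golgi network, was at 6.47, 7.07 and 6.82 against 13.0, 12.3 and 10.4 CPM (0.82 ± 0.10, adjusted p = 1.1e-06), with no overlap. Rab24, of autophagy, was at 54.2, 51.5 and 58.1 against 78.6, 78.3 and 72.7 CPM (0.49 ± 0.06, adjusted p = 8.3e-07). Rab12, which sends the transferrin receptor to lysosomes, was at 57.7, 60.0 and 59.2 against 66.7, 65.1 and 69.8 CPM (0.19 ± 0.05, adjusted p = 0.003). Rab9 and Rab7b, both of transport from endosomes to the trans-Golgi network, were not called (0.07 ± 0.06, adjusted p = 0.28, and 0.19 ± 0.21, adjusted p = 0.47), although thinned counts called Rab9 at 0.20 (adjusted p = 0.039).

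The secretory Rabs held the largest rise. Rab6b, a Golgi Rab known mainly from neurons, went from 0.379, 0.226 and 0.210 CPM (29, 9 and 7 reads) in mock to 3.95, 4.70 and 3.60 CPM (60, 69 and 49 reads) in p140Cap cells. All p140Cap libraries were far above the mock libraries (3.76 ± 0.23, adjusted p = 4.8e-10), and the ratio of pooled reads per total was 13.6 (95% exact interval 9.77 to 19.3, counting error only). It passed the filter on low counts only through the p140Cap libraries. It remained a minor transcript beside Rab6a, its ubiquitous paralog in transport within and from the Golgi, which was at 231 to 242 CPM in mock and 260 to 284 CPM in p140Cap cells (0.19 ± 0.05, adjusted p = 0.0026). Rab3a and Rab3d, which control regulated exocytosis, Rab3d mainly in secretory epithelia, rose by a similar amount. Rab3d was at 74.0, 74.9 and 78.1 against 132, 138 and 131 CPM (0.82 ± 0.05, adjusted p = 2.4e-10). Rab3a was at 9.03, 9.45 and 10.2 against 15.8, 17.3 and 15.9 CPM (0.78 ± 0.08, adjusted p = 2.3e-07). For both, the lowest p140Cap library was more than 1.5-fold above the highest mock library. Rab37, of secretory granules, was at 0.510, 0.528 and 0.420 against 1.05, 0.954 and 0.955 CPM (1.00 ± 0.28, adjusted p = 0.004). It rests on 74 reads in mock and 43 in p140Cap cells, with a ratio of pooled reads per total of 2.0 (95% exact interval 1.34 to 2.95), and thinned counts gave a log2 fold change of 1.85. Rab19 and Rab43, both of the Golgi, were at 1.48, 1.66 and 1.11 against 2.57, 2.79 and 2.42 CPM (0.85 ± 0.19, adjusted p = 0.00069) and at 25.9, 25.7 and 32.1 against 48.5, 55.1 and 44.1 CPM (0.83 ± 0.09, adjusted p = 2.9e-07). For Rab43, 71.1% of exonic bases overlap the gene model Gm45140 on the same strand, so its reads are uncertain.

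Rab27a, which docks secretory granules, melanosomes and exosome-bearing endosomes, was at 19.3, 19.9 and 19.5 against 14.2, 13.1 and 12.3 CPM and fell with no overlap (-0.56 ± 0.07, adjusted p = 4.1e-06). Its paralog Rab27b was at 36.6 to 39.4 CPM in mock and 39.0 to 42.8 CPM in p140Cap cells (0.09 ± 0.06, adjusted p = 0.19). Among the ER and Golgi Rabs, Rab1a was at 277, 290 and 277 against 301, 288 and 300 CPM and not called (0.07 ± 0.05, adjusted p = 0.17), while Rab1b was at 221, 210 and 242 against 172, 190 and 181 CPM and lower (-0.31 ± 0.06, adjusted p = 0.00013). Rab1b is on chromosome 19, where the 424 tested genes had a median log2 fold change of -0.34, against 0.01 for the 11376 tested genes elsewhere. The part of that shift in the fall of Rab1b was not tested. Rab8a, which carries cargo from the Golgi to the surface and the cilium, was lower (-0.18 ± 0.05, adjusted p = 0.0025) and Rab8b higher (0.25 ± 0.07, adjusted p = 0.0048). Rab18 (ER and lipid droplets), Rab30 and Rab33b (Golgi) were higher by 0.28 to 0.32, with the call of Rab33b lost in thinned counts (0.23, adjusted p = 0.062). Rab2a (0.11 ± 0.05) and Rab10, of basolateral and GLUT4 vesicles (0.09 ± 0.04), were not called, with adjusted p-values of 0.058 and 0.097, and without p140Cap replicate 2 Rab2a was called at 0.15 (adjusted p = 0.0094). Rab10 is the single member not called whose groups did not overlap. Rab2b was called at 0.18 ± 0.08 with an adjusted p of 0.047, and lost the call in 10 of 14 alternative settings.

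Of the 5 tested members outside these steps, Rab40b and Rab34 were higher and Rab23 and Rab28 lower. Rab40b, a SOCS-box Rab that adapts a ubiquitin ligase, was at 0.183, 0.251 and 0.210 against 0.527, 0.681 and 0.588 CPM (1.51 ± 0.38, adjusted p = 0.0022). It had 31 reads in all mock and 26 in all p140Cap libraries, and the ratio of pooled reads per total was 2.89 (95% exact interval 1.65 to 5.02). Like Rab6b, it passed the filter on low counts only through the p140Cap libraries, so that its direction is not independent of the filter. It was not tested in thinned counts, without any 1 of the mock libraries, or with at least 10 reads in every library. Rab23, which acts in cilia and restrains Hedgehog signalling, was at 17.4, 18.6 and 16.8 against 10.7, 9.94 and 9.77 CPM, well apart (-0.80 ± 0.08, adjusted p = 1.8e-07). Rab34, of cilium formation and lysosome positioning, was at 37.4, 38.0 and 37.4 against 49.8, 50.7 and 47.2 CPM (0.39 ± 0.05, adjusted p = 5.4e-06). Rab28, also ciliary, was at 60.0, 62.9 and 60.5 against 54.7, 51.5 and 58.5 CPM (-0.16 ± 0.06, adjusted p = 0.019). The call of Rab28 was lost without mock replicate 2 (-0.14, adjusted p = 0.056), without p140Cap replicate 1 (-0.16, adjusted p = 0.052) or 2 (-0.11, adjusted p = 0.092), and in thinned counts (-0.16, adjusted p = 0.065). Rab40c was not called (0.10 ± 0.07, adjusted p = 0.21). The genes of this group together stayed level, at 144 ± 2.28 CPM in mock and 144 ± 2.06 CPM in p140Cap cells.

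Levels of different genes were compared per kb of annotated exon. In mock cells Rab1b (68.7 to 79.1 CPM per kb) and Rab25 (69.0 to 76.6) led and did not differ beyond their spread, followed by Rab1a (61.3 to 64.2), Rab10 (49.8 to 51.8) and Rab6a (49.1 to 51.4), the last pair overlapping. In p140Cap cells Rab25 was alone at the top (80.2 to 84.9 CPM per kb), and Rab1b (56.1 to 62.0) came after Rab1a (63.6 to 66.7) and overlapped with Rab15 (60.5 to 62.8). Rab15 moved from the 7th to the 3rd place in mean level per kb, and Rab1b from the 1st to the 4th. The union of all annotated exons was used as the length, so a gene that uses few of its exons comes out too low.

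**Figure D3:**
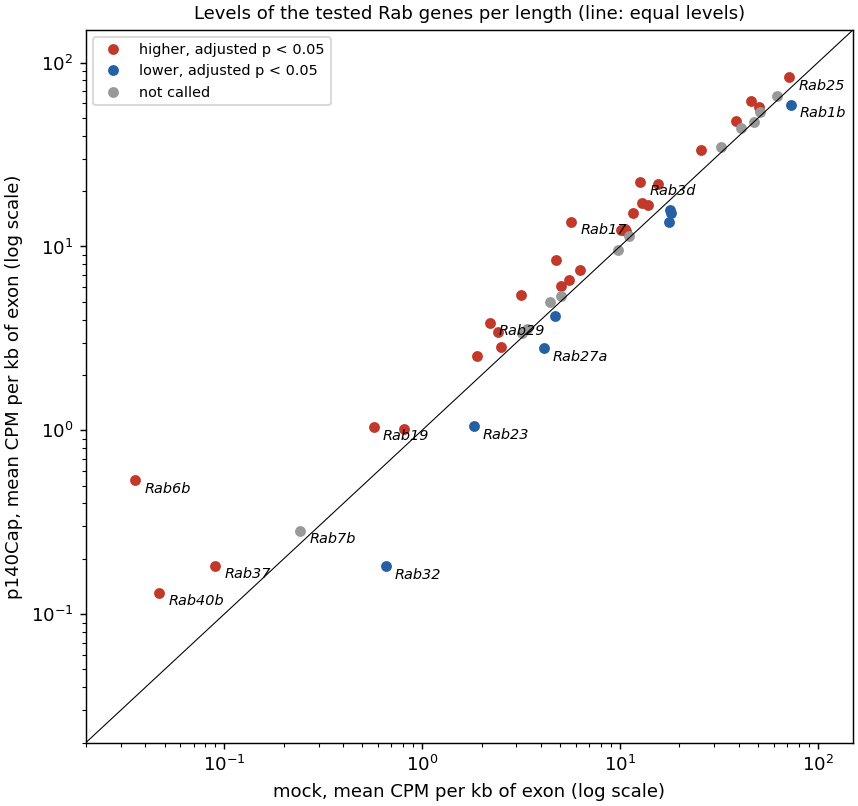
Mean level of the 48 tested Rab genes in mock (x axis) and p140Cap cells (y axis), in CPM per kb of exon on log scales, with the line of equal levels. Red genes were higher, blue genes lower and grey genes not called; Rab6b, Rab32 and Rab40b, the genes farthest from the line, lie among the least abundant, Rab17 is the next and lies at a middle level (5.69 and 13.7 CPM per kb), and genes above 30 CPM per kb stay close to the line.

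Paralogs within a subfamily were also compared as shares of the subfamily's reads per length, which do not depend on library scaling. With 3 against 3 libraries the smallest two-sided exact permutation p is 0.1, so no share can pass 0.05. Over the 26 shares computed in 12 subfamilies, 0.1 became 0.13 after Benjamini-Hochberg adjustment. Rab32 made up 22.3, 21.7 and 24.9% of the Rab32 and Rab29 pair in mock and 3.09, 4.58 and 6.27% in p140Cap cells (exact permutation p = 0.1). Rab27a made up 55.2, 56.9 and 57.2% of the Rab27 pair in mock and 47.4, 45.9 and 42.0% in p140Cap cells (p = 0.1, exact permutation). Rab1b was at 54.0% ± 2.31 (SD, n = 3) of the Rab1 pair in mock and 47.4% ± 1.83 in p140Cap cells (exact permutation p = 0.1). Which gene of a pair is the larger depends on the annotated length: by CPM, Rab27b was above Rab27a and Rab1a above Rab1b in all 6 libraries. Rab8a fell from 76.5% ± 1.79 to 70.6% ± 1.48 of its pair, Rab11b from 17.6% ± 0.64 to 13.2% ± 0.93 of its trio and Rab31 from 61.1% ± 0.89 to 56.3% ± 1.35 of the pair with Rab22a. Rab5b rose from 37.1% ± 1.59 to 42.0% ± 0.63 of the Rab5 trio. In all of these the groups did not overlap. In the Rab3 pair, by contrast, both genes rose and the share of Rab3d was 80.0% ± 0.50 in mock and 80.5% ± 0.39 in p140Cap cells, with overlapping groups (exact permutation p = 0.2). The shares of the Rab2 and Rab4 pairs overlapped as well.

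**Figure D4:**
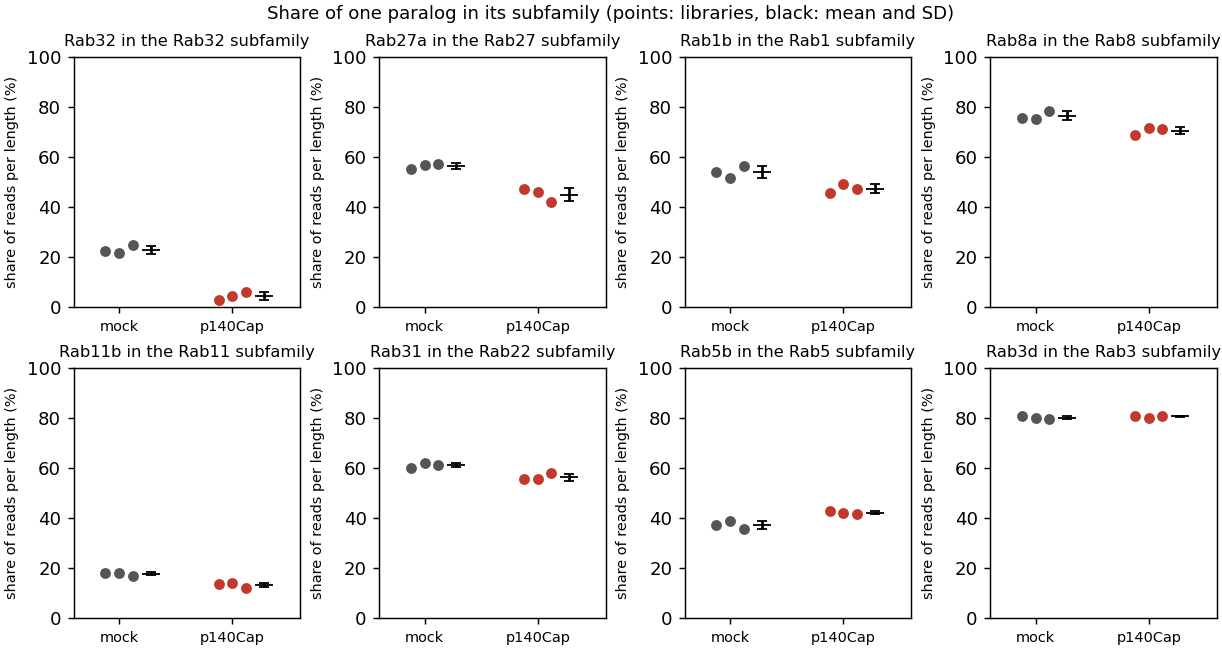
Share of 1 paralog in the reads per exon length of its subfamily (y axis, 0 to 100%) in the 3 mock (grey) and 3 p140Cap (red) libraries, with mean and SD in black. The share of Rab32 drops most, from 22 to 25% to 3 to 6%, and that of Rab3d stays near 80%.

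Genes that act on Rabs were counted from a list of 139, of which 127 were tested. Of these, 72 were higher and 31 lower (81.1% called, against 71.1% of all genes, with 35.2% higher and 35.9% lower). The median log2 fold change was 0.20, and 34 genes were called with at least 0.5 log2 units, 24 higher and 10 lower (26.8% of tested regulators, against 30.8% of all genes). Among the 10, Grtp1 and Rilp passed the filter on low counts only through the mock libraries, which fixed their direction. All 8 genes of prenylation and GDI function were called, 3 higher and 5 lower. Gdi2, a GDI gene, went from 476, 517 and 480 to 455, 408 and 453 CPM (-0.16 ± 0.05, adjusted p = 0.013), a call lost without mock replicate 2 (-0.13, adjusted p = 0.059). The subunits of the geranylgeranyl transferase that lipidates Rabs, Rabggtb (-0.50) and Rabggta (-0.29), and the escort protein gene Chml (-0.36) were lower, and the other escort protein gene, Chm, was higher (0.22), a call lost without p140Cap replicate 1 (0.14, adjusted p = 0.082). Rabac1, whose product binds prenylated Rabs, was higher (0.49).

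Of 37 tested GEF genes 22 were higher and 4 lower, and of 35 GAP genes 22 were higher and 9 lower. Called were 70.3% of the GEF genes and 88.6% of the GAP genes, against 71.1% of all genes (35.2% higher and 35.9% lower). The DENN domain GEF gene Dennd4b, for Rab10, was at 7.93, 7.19 and 8.44 against 14.1, 17.4 and 15.0 CPM (0.98 ± 0.10, adjusted p = 9.8e-08). Dennd1c was higher as well (0.71 ± 0.18), at 1.51 CPM in mock and 2.46 CPM in p140Cap cells, but not in thinned counts (0.31, adjusted p = 0.38). Dennd5b was lower (-0.24), and was at -0.05 in thinned counts (adjusted p = 0.71). Both subunits of the Rab32 and Rab38 GEF, Hps1 (0.58) and Hps4 (0.55), were higher, while Rab32 itself fell. Rin1, a Rab5 GEF gene, was lower (-0.47 ± 0.07) and Rin2, of the same family, higher (0.57 ± 0.04). Rin1 is on chromosome 19, whose tested genes had a median of -0.34, and so is Hps1, which was higher. The part of that shift was not tested. Rab3gap2 and Madd, whose products act on Rab18 and Rab3, were higher by 0.44 and 0.20 (Madd 0.18 in thinned counts, adjusted p = 0.082, not called), and Rab3gap1 was not called (0.10, adjusted p = 0.076). Among GAP genes Tbc1d24 had the largest fall, from 10.9, 8.90 and 9.64 to 2.24, 2.11 and 1.91 CPM with no overlap (-2.24 ± 0.14, adjusted p = 6.3e-10). Tbc1d2, a GAP gene for Rab7, and its relative Tbc1d2b were lower (-0.62 and -0.54), and Tbc1d17 (0.78), Tbc1d16 (0.74) and Tbc1d13 (0.65), a GAP gene for Rab35, were higher. Sgsm1 was higher at a low level, from 0.695 to 1.43 CPM (1.02 ± 0.24, adjusted p = 0.0011), and was not called in thinned counts (0.75, adjusted p = 0.11).

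Of 47 tested effector genes 25 were higher and 13 lower (53.2% and 27.7%, against 35.2% and 35.9% of all genes). The Rab27 effectors did not move together. Sytl3, a synaptotagmin-like Rab27 effector, was at 12.5, 12.2 and 12.4 against 25.3, 27.5 and 26.7 CPM (1.10 ± 0.07, adjusted p = 4.3e-10). Unc13d, which primes granules for fusion, was also higher (0.54 ± 0.08) and Mlph, which links Rab27a to a myosin, slightly so (0.24 ± 0.05). Myo5a, that myosin, was at 97.7, 94.1 and 91.1 against 50.4, 54.6 and 55.8 CPM (-0.82 ± 0.05, adjusted p = 1.2e-09), and Rph3al was lower (-0.58 ± 0.09). Exph5 and Sytl2 were not called (adjusted p = 0.36 and 0.37). Of the partners of Rab11 subfamily members, Myo5b, Rab11fip5 and Rab11fip1 were higher by 0.48, 0.58 and 0.27, Sh3tc2 was lower (-0.62, adjusted p = 8.9e-08) and Rab11fip4 slightly so (-0.12, adjusted p = 0.046), and Rab11fip2 and Rab11fip3 were not called (-0.03 and -0.01, adjusted p = 0.68 and 0.86). The call of Rab11fip4 was lost in 6 of 14 alternatives: with DESeq2 (adjusted p = 0.072), with the replicate block (adjusted p = 0.074), and without mock replicate 1 (-0.11) or 3 (-0.12) or p140Cap replicate 2 (-0.10) or 3 (-0.12). Of the Rab5 partners, Appl2 was at 275, 261 and 259 against 423, 423 and 413 CPM (0.66 ± 0.05, adjusted p = 2.2e-09). Eea1, Rabep1 and Rbsn were lower (-0.20, -0.19 and -0.19) and Appl1 was not called (-0.11, adjusted p = 0.11). Rabep2, a relative of Rabep1, was higher (0.32, adjusted p = 0.0024). Rabep2 and Rbsn were not followed in the alternatives. Fyco1, which couples Rab7 to kinesin, was at 77.6, 67.5 and 72.2 against 131, 129 and 126 CPM (0.83 ± 0.05, adjusted p = 1.1e-09), and Rilpl1 was higher (0.71). Rilp, a Rab7 effector gene at 0.780 CPM in mock and 0.461 CPM in p140Cap cells, was lower (-0.77 ± 0.31, adjusted p = 0.034). Rilp passed the filter on low counts only through the mock libraries, so that its direction is not independent of the filter. Its call was lost in 9 alternatives, among them each p140Cap library left out and mock replicate 1 or 2 left out (-0.69 to -0.85) and the replicate block (adjusted p = 0.057). Bicd1, an adaptor between Rab6 and dynein, and Ehbp1l1, which binds Rab8, were lower (-0.67 and -0.69), at 2.69 and 3.53 CPM in mock. Ehbp1l1 is on chromosome 19 as well. Their more abundant relatives differed: Bicd2 was at 101 CPM in both groups and not called (adjusted p = 0.99), and Ehbp1 was higher (0.40, adjusted p = 0.00029). In the Golgi, the tether gene Golga2 rose (0.71 ± 0.05) and its partner Uso1 fell by 0.22.

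**Figure D5:**
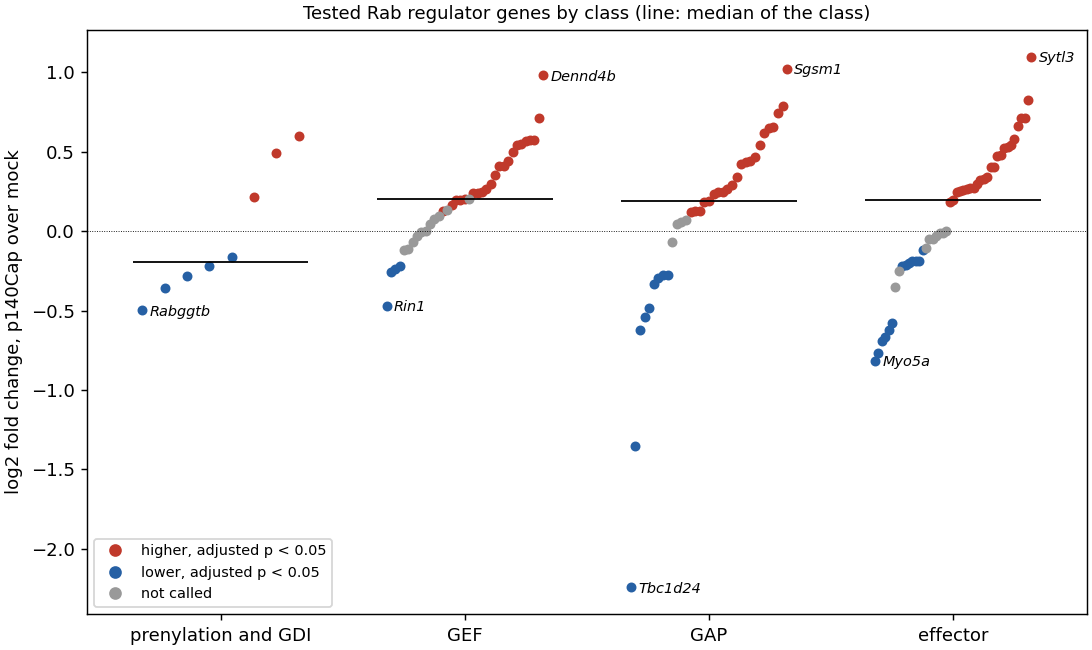
Log2 fold change (p140Cap over mock, y axis) of the 127 tested genes that act on Rabs, ordered within each of 4 classes, with the class median as a black line. Red genes were higher, blue genes lower and grey genes not called; the medians of GEFs, GAPs and effectors lie at 0.20, 0.19 and 0.20 and that of the 8 prenylation and GDI genes at -0.19, and Tbc1d24 is lowest at -2.24.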

How the data were processed

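The data are RNA-Seq libraries of mock (3) and p140Cap (3) cells. Per the study's methods, stranded TruSeq libraries were sequenced on an Illumina NextSeq and processed with docker4seq, and per the labels poly(A) RNA was selected. The submitters' processing notes name mm10, STAR 2.5 and RSEM 0.1.1 without a role. The authors deposited counts, whole numbers per gene and library with no normalization. Whether they are rounded estimates, and whether strand was used in counting, was not given in the sources used here. Reads of a gene and an antisense partner therefore cannot be told apart. Many members have such a partner, among them Rab3a, Rab3d, Rab20, Rab23, Rab24, Rab4a, Rab1b, Rab6a, Rab8a, Rab11a, Rab11b, Rab14, Rab34 and Rab37.

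Counts were tested in R 4.3.3 with edgeR 4.0.16: TMM factors, filterByExpr by group, a quasi-likelihood test on the group alone, and Benjamini-Hochberg adjustment over 11800 genes. CPM used TMM-adjusted library sizes. Total reads were 13770385 to 75506562 per library, and the biological coefficient of variation was 4.57%. Between libraries of a group the mean chi-square was 1.75 to 10.7, above the sampling noise of 1, so that all libraries were counted as separate samples. Correlations of the deviations of same-numbered samples were -0.030, -0.106 and -0.057, so that numbers were not taken as pairs. Scripts were tested on simulated counts. Exon lengths and overlaps came from GENCODE vM39 (98.6% of genes and 59 of 59 members matched), coordinates and promoters from RefSeq. Intervals cover counting error only.

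The members, steps and the regulator list were chosen with earlier results of these data known. All members may be named. Values in every library are given for up to 4 called members a step with the largest change, for the most abundant, and for further members described (Rab3a, Rab3d, Rab27a, Rab1b, Rab11b, Rab25). Up to 3 regulators rising and 3 falling in a class were taken by size of change with a mean CPM of at least 1. Some genes that this rule takes are not reported here. Other regulators in the text were chosen after their values were seen. Alternatives were DESeq2 1.42.0, limma-voom of limma 3.58.1, RLE and upper-quartile factors, no filter, at least 10 reads in every library, leaving out each library, thinning to the smallest total, and the replicate number as a block.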

Additional observations from a re-analysis of the deposited data

How the results depend on the processing

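Under 14 alternatives, 31 to 36 Rab genes were called, with 24 to 29 higher and 7 to 8 lower, and 9 to 14 were called with at least 0.5 log2 units. Regulators called were 85 to 103, the lowest in thinned counts. Srcin1 stayed between 7.19 and 7.39. For the Rab genes, median log2 fold change was 0.159 with no filter on low counts (53 members) and 0.205 with at least 10 reads in every library (45 members), and 0.201 to 0.228 when 1 library was left out. Among the genes named or followed here, changes of sign were seen in 8, none of them called: Rab7 (-0.012 to 0.0007 with 1 library left out, positive without mock replicate 2, and 0.008 thinned), Rab5a (-0.014 to 0.070, negative without p140Cap replicate 1), Sytl2 (-0.758 to 0.008, positive without p140Cap replicate 1, and 0.156 thinned), Bicd2 (-0.026 to 0.014 with 1 library left out, 0.0001 with limma-voom, 0.001 with upper-quartile factors, 0.028 thinned), Rab11fip2 (-0.064 to 0.006 with 1 library left out), Rab11fip3 (-0.092 to 0.022 with 1 library left out, 0.026 thinned), Micall1 (0.012 thinned) and Mon1a (0.003 thinned). The cause was not tested. With the replicate number as a block, 35 Rab genes were called and the calls of Rab2b (adjusted p = 0.0816, edgeR), Mon1b (0.0695), Rab11fip4 (0.0737) and Rilp (0.0566) were lost; the samples share only a number. Thinning also lost the calls of Rab33b, Dennd1c (0.31), Dennd5b, Madd and Sgsm1. With reads not divided by length, the share of Rab32 fell by 21.7 percentage points in place of 18.3, that of Rab11b by 8.05 in place of 4.45, and that of Rab11a rose by 6.42 in place of 2.27. The median over all genes moved between -0.059 and 0.006. Depth limits statements on Rab6b, Rab7b, Rab19, Rab32, Rab37 and Rab40b, which have under 100 reads in every p140Cap library. Among the regulators named, the same holds for Tbc1d24, Grtp1, Sgsm1, Dennd1c, Rilp, Bicd1, Ehbp1l1, Exph5 and Sytl2.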
